A study of Mus musculus with 12 samples.

Results

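Opalin, Ugt8a, Gjb1 and Aspa are 4 genes of oligodendrocytes and the myelin they make. They were chosen from the genes that the authors' tables list, on the read counts of these libraries, as lower in BK KO than in WT brain, and they are 4 of the 1017 genes listed in either table. All 4 are among the 561 genes listed for cortex, and Opalin and Ugt8a are also among the 652 listed for hippocampus. Gjb1 and Aspa are not listed for hippocampus, and their values there were not analysed here. Each table holds only genes that the authors had already called different between the genotypes in that tissue, from the libraries described here. The direction of the genotype difference in the 4 genes is therefore how they were chosen, and it is described below with no test.

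RNA was sequenced from hippocampus and from cortex of 3 WT and 3 BK KO mice, giving 12 libraries with 3 in each group. The BK KO mice (kcnma1-/-) carried a CRISPR/Cas9 frameshift deletion in Kcnma1, the gene of the pore-forming subunit of the large-conductance calcium-activated potassium (BK) channel, on a C57BL/6 background. The WT mice were of the same strain and came from the same breeding of heterozygous parents, and all animals were adult. The deletion was present in every cell of the animal and not in a chosen cell type, so the design does not tie a difference in these genes to a cell type.

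Oligodendrocytes wrap axons in myelin, a stack of membrane that is rich in galactolipids and cholesterol, and they mature from dividing precursor cells. Ugt8a encodes ceramide galactosyltransferase, which makes galactocerebroside, the main glycolipid of myelin. Opalin encodes a transmembrane glycoprotein of the oligodendrocyte and its myelin. Gjb1 encodes a connexin of the gap junctions that join oligodendrocytes to astrocytes and that run between myelin layers. Aspa encodes aspartoacylase, which splits N-acetylaspartate made by neurons and frees acetate that can be used for lipid synthesis. The annotation deposited with the tables gave Ugt8a the terms myelination and paranodal junction assembly, with sphingolipid and ether lipid metabolism as its pathways. Aspa carried the term positive regulation of oligodendrocyte differentiation, Gjb1 carried the terms gap junction and connexin complex, and no myelin or oligodendrocyte term stood with Opalin.

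The promoters of the 4 genes are shown as a description of sequence, searched for words of SOX and MYRF factors. SOX10 and MYRF are transcription factors that drive the myelin program. The 4 genes were chosen as lower in BK KO, so their shared direction is no sign of a shared regulator, which was not tested. The windows are from RefSeq on GRCm38.p6 and run from 250 bases before to 50 bases after the annotated start. They were searched on both strands for the SOX words ACAAAG and ACAATG and the MYRF words CTGGCAC and CTGGTAC, which do not overlap each other in these windows, and matches are in capitals. The 4 genes have 7 windows in all, of which Gjb1 has 4, and its 2 windows with one of these words are printed.
Opalin, chr19:41077064-41077363, minus strand: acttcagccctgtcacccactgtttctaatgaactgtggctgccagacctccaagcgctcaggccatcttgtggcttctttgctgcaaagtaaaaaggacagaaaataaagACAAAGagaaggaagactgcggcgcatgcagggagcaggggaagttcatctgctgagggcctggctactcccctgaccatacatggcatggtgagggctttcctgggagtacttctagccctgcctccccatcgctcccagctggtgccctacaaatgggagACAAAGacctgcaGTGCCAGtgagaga
Gjb1, chrX:101376126-101376425, plus strand: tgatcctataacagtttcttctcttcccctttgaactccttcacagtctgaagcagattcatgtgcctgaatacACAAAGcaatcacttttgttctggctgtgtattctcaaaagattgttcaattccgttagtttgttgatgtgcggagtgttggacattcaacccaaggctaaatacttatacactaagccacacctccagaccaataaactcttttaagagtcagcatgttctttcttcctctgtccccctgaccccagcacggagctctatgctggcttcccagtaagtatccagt
Gjb1, chrX:101383482-101383781, plus strand: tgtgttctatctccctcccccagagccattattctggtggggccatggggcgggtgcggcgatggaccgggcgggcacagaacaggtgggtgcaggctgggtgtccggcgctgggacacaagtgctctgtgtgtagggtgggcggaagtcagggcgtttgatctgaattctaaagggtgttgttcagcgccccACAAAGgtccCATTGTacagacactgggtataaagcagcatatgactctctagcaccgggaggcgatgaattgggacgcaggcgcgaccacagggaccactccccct
Ugt8a, chr3:125938603-125938902, minus strand: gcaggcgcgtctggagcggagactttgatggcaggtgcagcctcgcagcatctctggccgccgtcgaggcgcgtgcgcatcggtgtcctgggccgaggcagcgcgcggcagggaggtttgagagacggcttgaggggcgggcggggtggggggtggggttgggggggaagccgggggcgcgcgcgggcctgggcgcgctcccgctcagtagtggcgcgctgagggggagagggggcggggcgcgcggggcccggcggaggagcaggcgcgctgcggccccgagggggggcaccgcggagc
Aspa, chr11:73324588-73324887, minus strand: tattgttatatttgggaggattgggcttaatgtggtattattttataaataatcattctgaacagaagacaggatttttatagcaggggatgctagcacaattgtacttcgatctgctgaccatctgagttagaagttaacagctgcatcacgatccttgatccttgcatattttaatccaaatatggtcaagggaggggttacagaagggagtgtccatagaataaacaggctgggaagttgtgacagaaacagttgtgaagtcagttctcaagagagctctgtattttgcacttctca

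The Opalin window held ACAAAG at 139 bases before the start and again at 23 bases after it, and CTGGCAC on the reverse strand at 36 bases after it, where the printed strand reads GTGCCAG. The first Gjb1 window held ACAAAG at 176 bases before its start. In the other printed Gjb1 window, ACAAAG lay 57 bases before the start and ACAATG, on the reverse strand, 47 bases before it. The Ugt8a and Aspa windows held none of these words. In all, 3 of the 7 windows held a SOX word, against 28.6% of 32851 mouse promoter windows of the same length, and 1 of the 7 held a MYRF word, against 7.10% of them. These words are short and common, and a match is a description of the sequence only. The 4 genes differ widely in base composition at the start. The Ugt8a window was 78.3% G and C, a share that 1.76% of all windows reach, while that of Aspa was 39.0% and that of Opalin 54.3%, beside a median of 52.7% over all windows.

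The labels were first checked on the deleted gene. Kcnma1 measured 11.3, 10.6 and 9.67 FPKM in the WT hippocampus libraries, against 2.54, 2.82 and 2.81 in those of BK KO. In cortex it measured 11.98, 9.82 and 11.8 FPKM in the WT libraries, against 3.09, 2.97 and 2.76 in those of BK KO. FPKM is the number of sequenced fragments scaled for transcript length and for the size of the library, so levels of different genes can be set side by side. Kcnma1 was lower in every BK KO library than in every WT library of its tissue, as the labels say. Expression changes below are differences of log2(FPKM + 1), BK KO minus WT, a scale on which the pseudocount of 1 shrinks the difference of genes with low FPKM. Depth per library is unknown. By the methods, both tissues were taken from the same 3 mice of each genotype, and the labels do not say which hippocampus and cortex libraries share a mouse.

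A few libraries stood apart, and results that rest on them are given with and without them. In hippocampus, 8 oligodendrocyte genes other than precursor markers were listed. WT library 3 was the highest WT library in 7 of the 8 and WT library 1 the lowest in 7 of 8. In cortex, WT library 1 held more skeletal muscle transcripts than the other libraries, with a summed level over 11 muscle genes of 90.7 FPKM against 32.6 and 27.3 in the other WT libraries and 7.25 to 9.43 in BK KO. The labels of tissue could be checked only in part, since the tables list called genes. Over the 196 genes in both tables, the median absolute difference between tissues was 0.1004 on the log2(FPKM + 1) scale, while that between genotypes was 0.544 in hippocampus and 0.543 in cortex. These genes were listed for passing a genotype cutoff in each tissue, and the tissue difference is averaged over both genotypes. The medians therefore cannot show whether tissues differ less than genotypes. Over the same genes, each hippocampus library correlated with its closest cortex library, always of its own genotype, at 0.981 to 0.992 and with the nearest hippocampus library of its group at 0.975 to 0.982. The hippocampus and cortex libraries thus differed little over these genes, and since they came from the same mice, a like value of Opalin or Ugt8a in both tissues is not a repeat in other animals.

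In cortex, the mean level of each of the 4 genes in BK KO was between 47.9% and 63.2% of that in WT. Ugt8a measured 7.87, 7.11 and 6.29 FPKM in the WT libraries, against 3.17, 3.57 and 3.44 in those of BK KO. The BK KO libraries were close to each other and all were well below the lowest WT library. The mean was 7.09 ± 0.793 FPKM (SD, n = 3) in WT and 3.39 ± 0.200 in BK KO, 47.9% of WT, a log2 difference of -0.88 (SE 0.099). Opalin measured 15.6, 23.1 and 14.2 FPKM in the WT libraries, against 7.85, 12.4 and 6.47 in those of BK KO. WT library 2 and BK KO library 2 were the high libraries of their groups, and the highest BK KO library was 1.81 FPKM below the lowest WT library. Its mean was 17.6 ± 4.75 FPKM in WT and 8.91 ± 3.11 in BK KO, 50.5% of WT, a log2 difference of -0.93 (SE 0.27).

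Gjb1 and Aspa were nearer to WT. Gjb1 measured 7.49, 6.48 and 6.53 FPKM in the WT cortex libraries, against 3.38, 4.46 and 5.12 in those of BK KO. The groups did not overlap, and BK KO library 1 was the lowest. Its mean was 6.83 ± 0.565 FPKM in WT and 4.32 ± 0.876 in BK KO, 63.2% of WT, a log2 difference of -0.57 (SE 0.14). Aspa measured 2.71, 3.18 and 2.20 FPKM in the WT libraries, against 1.44, 1.53 and 2.01 in those of BK KO. Its groups were parted by a gap of 0.190 FPKM, between BK KO library 3 and WT library 3. Its mean was 2.70 ± 0.493 FPKM in WT and 1.66 ± 0.306 in BK KO, 61.4% of WT, a log2 difference of -0.47 (SE 0.14). In these bulk samples, fewer oligodendrocytes and less of each RNA per oligodendrocyte cannot be told apart.

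**Figure D1:**
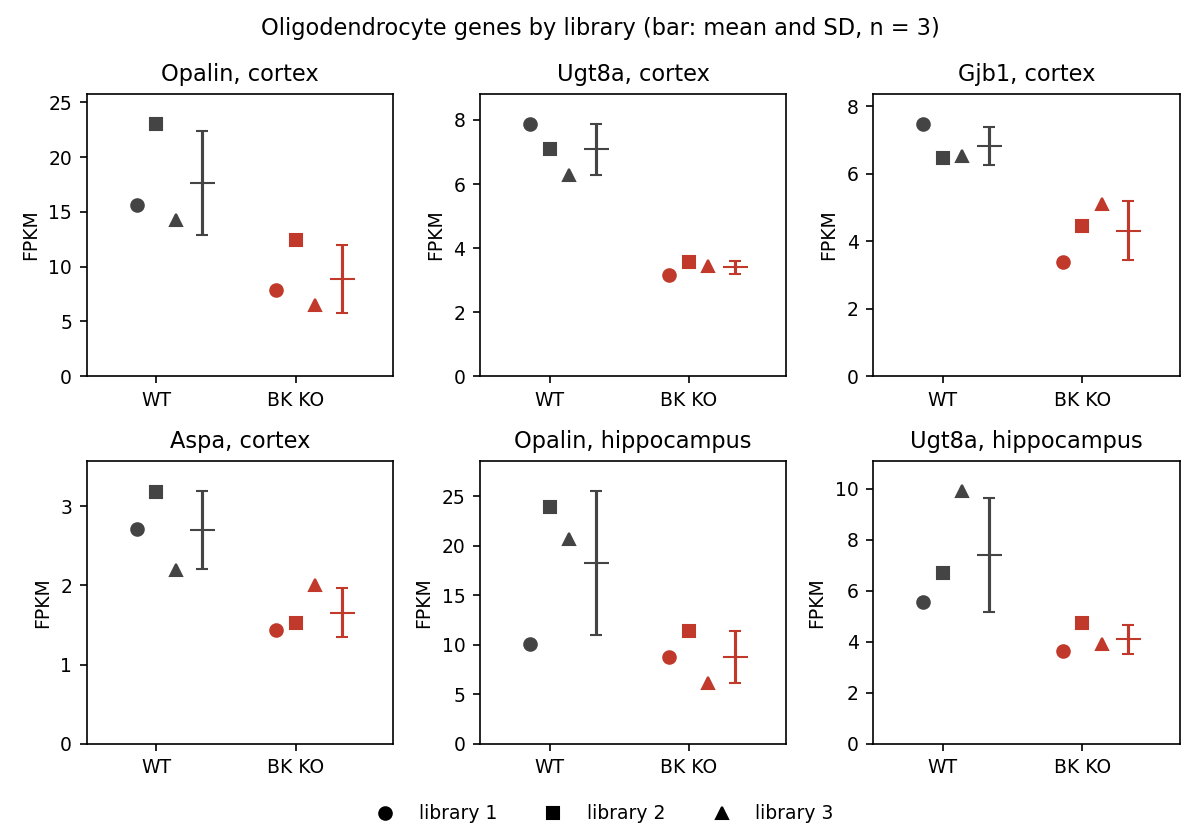
Levels in FPKM (y axis) of the 4 genes in each WT and BK KO library of cortex and hippocampus, each point a library and the line with whiskers beside it the group mean and SD (n = 3). In cortex the BK KO points lie below the WT points for all 4 genes, with Ugt8a at 3.17 to 3.57 FPKM in BK KO and 6.29 to 7.87 in WT, whereas in hippocampus the Opalin groups overlap and Gjb1 and Aspa have no values.

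As a rule of size and spread, a gene was counted as past the threshold if its log2 difference was beyond 0.58 with an unadjusted p under 0.05 by limma. The authors had listed the genes at the same cutoffs from the same libraries. Passing the threshold therefore describes the values and is no test of the 4 genes. In cortex, Opalin and Ugt8a were past the threshold and Gjb1 and Aspa were not. Past it in either direction were 30.8% of the 561 listed genes, and 20.0% were past it and lower in BK KO. All 3 BK KO values were below all 3 WT values for all 4 genes, and for 56.3% of the listed genes, while 80.6% did not overlap in either direction. Of the cortex genes, 70.4% had a lower mean in BK KO and 29.2% a higher one, and the median log2 difference of those with a lower mean was -0.45, beside -0.93, -0.88, -0.57 and -0.47 for Opalin, Ugt8a, Gjb1 and Aspa. Just inside and just outside the log2 difference of 0.58 in cortex stood Tmem63a at -0.59 and Gjb1 at -0.57, among the listed oligodendrocyte genes. With each library left out in turn, Gjb1 was past the threshold in 4 of 6 cases, all but those without WT library 1 or BK KO library 1 (-0.44), and Aspa in 0 of 6. Opalin and Ugt8a were past it in 6 of 6. Without WT library 1 of cortex, which was high in muscle transcripts, the log2 differences were -0.99 for Opalin, -0.81 for Ugt8a, -0.51 for Gjb1 and -0.47 for Aspa. With all libraries and a pseudocount of 0.1 in place of 1, Gjb1 and Aspa were each at -0.67, beyond 0.58 in size.

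In WT cortex, the order of levels per length was Opalin, Ugt8a, Gjb1 and Aspa. Opalin lay above the others in every WT library and Aspa below them, whereas the ranges of Ugt8a (6.29 to 7.87 FPKM) and Gjb1 (6.48 to 7.49 FPKM) overlapped. In BK KO cortex Gjb1 had the higher mean of this pair, and their ranges again overlapped. Opalin was again the highest and Aspa the lowest of the 4 in every BK KO library. The spread within a group was widest for Opalin, with a coefficient of variation of 27.0% in WT and 34.9% in BK KO, and narrowest in BK KO for Ugt8a, at 5.90%.

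In hippocampus, Opalin measured 10.04, 23.9 and 20.7 FPKM in the WT libraries, against 8.76, 11.4 and 6.15 in those of BK KO. The groups overlapped, because WT library 1 was below BK KO library 2. The mean was 18.2 ± 7.26 FPKM (SD, n = 3) in WT and 8.77 ± 2.62 in BK KO, 48.1% of WT, a log2 difference of -0.93 (SE 0.34). With each library left out in turn, the difference was between -1.29 and -0.70. It was past the threshold with all libraries and in 2 of the 6 cases, and it was not past it without WT library 2 (-0.70), WT library 3 (-0.80), BK KO library 1 (-0.95) or BK KO library 3 (-0.72). Ugt8a measured 5.57, 6.70 and 9.90 FPKM in the WT hippocampus libraries, against 3.64, 4.72 and 3.91 in those of BK KO. The groups did not overlap, and WT library 3 was the high value. Its mean was 7.39 ± 2.24 FPKM in WT and 4.09 ± 0.557 in BK KO, 55.3% of WT, a log2 difference of -0.69 (SE 0.20). Without WT library 3 the difference was -0.49 and no longer past the threshold, and it was past it in the other 5 cases. Over the 652 genes listed for hippocampus, 42.6% passed this threshold, 21.9% passed it and lower in BK KO, and 47.1% had all BK KO values below all WT values. Groups did not overlap in 79.9%, the mean was lower in BK KO in 58.1% and higher in 41.9%, and the median log2 difference of the lower genes was -0.52.

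The level of a gene in hippocampus against cortex was not used to choose the genes, and for Opalin and Ugt8a it could be tested over all 12 libraries by limma with Benjamini-Hochberg adjustment over the 196 shared genes. The mean log2(FPKM + 1) level of Opalin was 3.72 in hippocampus and 3.73 in cortex, a difference of -0.01 (SE 0.23, 95% interval -0.52 to 0.50, adjusted p = 0.987). That of Ugt8a was 2.69 and 2.57, a difference of 0.12 (SE 0.12, 95% interval -0.14 to 0.38, adjusted p = 0.700). Two-sided exact permutation tests within genotype gave p = 0.955 for Opalin and p = 0.37 for Ugt8a, where the smallest p possible was 0.005. A difference between tissues was not detected in either gene, and the intervals leave room for one of up to 0.52 in Opalin. Limma found 0 of the 196 genes at an adjusted p under 0.05 and 10 at an unadjusted p under 0.05. These fits take the 12 libraries as independent, although pairs of them share a mouse. With same-numbered hippocampus and cortex libraries of a genotype as a block, limma found 1 and 22 genes, and the adjusted p was 0.981 for Opalin and 0.553 for Ugt8a.

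The 4 genes did not share one order of libraries within a genotype. After the mean of each genotype was removed, Opalin and Ugt8a correlated at 0.62 over the 6 hippocampus libraries and at 0.30 over the 6 cortex libraries. In cortex, Ugt8a correlated with Gjb1 at 0.59 and with Aspa at 0.51, and Gjb1 with Aspa at 0.51. Opalin stood apart from them, at -0.17 with Gjb1 and 0.14 with Aspa. These correlations are a description over 6 libraries that share RNA and depth with every gene in them.

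The listed genes whose deviations were most like each of the 4, by the same correlation over 6 libraries and among genes of mean FPKM of 1 or more, were for Opalin in cortex 4930402H24Rik at 0.991, Adra1b at 0.967 and Smad9 at 0.966. For Ugt8a in cortex they were Alpl at 0.946, Slc9a2 at 0.935 and Ogn at 0.933, for Gjb1 Lst1 at 0.979, Serpinb1a at 0.960 and Fam180a at 0.955, and for Aspa Cxcl12 at 0.998, Isg15 at 0.963 and Aif1l at 0.957. In hippocampus they were Dgat2 at 0.956, Spint1 at 0.952 and Slc24a4 at 0.936 for Opalin, and Qdpr at 0.958, Kcne1l at 0.958 and Atpaf1 at 0.950 for Ugt8a. They were taken from 345 genes in cortex and 443 in hippocampus, as the highest of that many correlations over 6 libraries. With both genotype means removed as well, values this high can arise among unrelated genes, and they are a description only. Only Qdpr among the genes named is in the oligodendrocyte lists.

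The 4 genes were next set among lists of 108 oligodendrocyte genes. Of these, 92 were genes of myelin, of the mature cell or of transcription factors of the lineage, and 16 were markers of the precursor. The cortex table listed 13 of the 92, and all 13 were lower in BK KO with no overlap between the groups, with 8 past the threshold and a median log2 difference of -0.60. Over all 561 listed genes, 70.4% had a lower mean in BK KO, 56.3% had all BK KO values below all WT values, and 20.0% were past the threshold and lower. Without the 4 genes, the other 9 of the 13 were all lower, 6 were past the threshold and the median was -0.60. Since a table holds only genes called in these libraries, these counts describe the listed genes and are no independent evidence of direction. Genes of the 92 that are not listed for a tissue did not pass the authors' cutoffs in it, and have no values here. The median was -0.33 over all 561 listed genes and -0.45 over the lower ones among them. The summed level of the 13 genes was between 173 and 221 FPKM in the WT libraries and between 106 and 129 in BK KO.

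Among the 9, the myelin and mature-cell markers with the highest level were Car2, which encodes a carbonic anhydrase of oligodendrocytes, at 79.7 ± 9.06 FPKM in WT and 49.6 ± 5.66 in BK KO (log2 difference -0.67), and Ppp1r14a, an inhibitor of myosin phosphatase, at 41.8 ± 11.8 and 22.9 ± 3.52 (-0.82). Il33 (-0.65), a cytokine held in the nucleus, Tmem88b (-0.63), Plxnb3 (-0.60), a semaphorin receptor, and Tmem63a (-0.59), a mechanosensitive channel, were past the threshold too. Evi2a (-0.39), Itgb4 (-0.41), an integrin subunit, and St18 (-0.34), a zinc-finger transcription factor, were not. Without BK KO library 1 of cortex, the lowest BK KO library in 11 of the 13 genes, 4 of the 13 were past the threshold, namely Car2, Opalin, Ppp1r14a and Ugt8a. Over all 561 listed genes, the same fit had 180 past it in either direction, beside 173 with all libraries.

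In hippocampus, 8 of the 92 were listed and all 8 had a lower mean in BK KO. Of these, 5 had no overlap between groups, 5 were past the threshold and the median log2 difference was -0.64. The median was -0.27 over all 652 listed genes and -0.52 over the lower ones among them. Of the 652, 58.1% had a lower mean in BK KO, 47.1% had all BK KO values below all WT values, and 21.9% were past the threshold and lower. The other 6 of the 8 genes, without Opalin and Ugt8a, had a median of -0.57 with 3 past the threshold. Cryab, a small heat shock protein, was at 67.3 ± 21.5 FPKM in WT and 38.3 ± 2.28 in BK KO (-0.75), and Car2 at 87.3 ± 15.3 and 53.4 ± 2.14 (-0.68). Qdpr, which renews tetrahydrobiopterin, was at 140 ± 36.7 and 90.7 ± 9.81 (-0.59), and was past the threshold in 2 of 6 cases with a library left out. Olig2, a transcription factor of the whole lineage, was at 15.2 ± 2.63 FPKM in WT and 9.99 ± 2.03 in BK KO with no overlap (-0.56, not past the threshold). Plxnb3 (-0.37) and Sept4 (-0.55), a cytoskeletal GTPase, overlapped between groups and were not past it.

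The number of calls in hippocampus changed with the library left out, and fell furthest without WT library 3. The summed level of the 8 genes was 285, 347 and 454 FPKM in WT and 212, 229 and 227 in BK KO. Without WT library 3, 0 of the 8 genes were past the threshold, at -0.80 for Opalin, -0.49 for Ugt8a and -0.55 for Car2, whereas without WT library 1 there were 7 of 8. There were 3 of 8 without WT library 2 and 3 of 8 without BK KO library 1. All 8 log2 differences were still below 0 without WT library 3. Mbp, Mog, Mag, Cnp, Sox10 and Myrf, defining genes of myelin and its program, are in neither table. The authors thus did not call them different at their cutoffs in either tissue. Their values were not analysed here, so their absence does not show that they were unchanged.

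**Figure D2:**
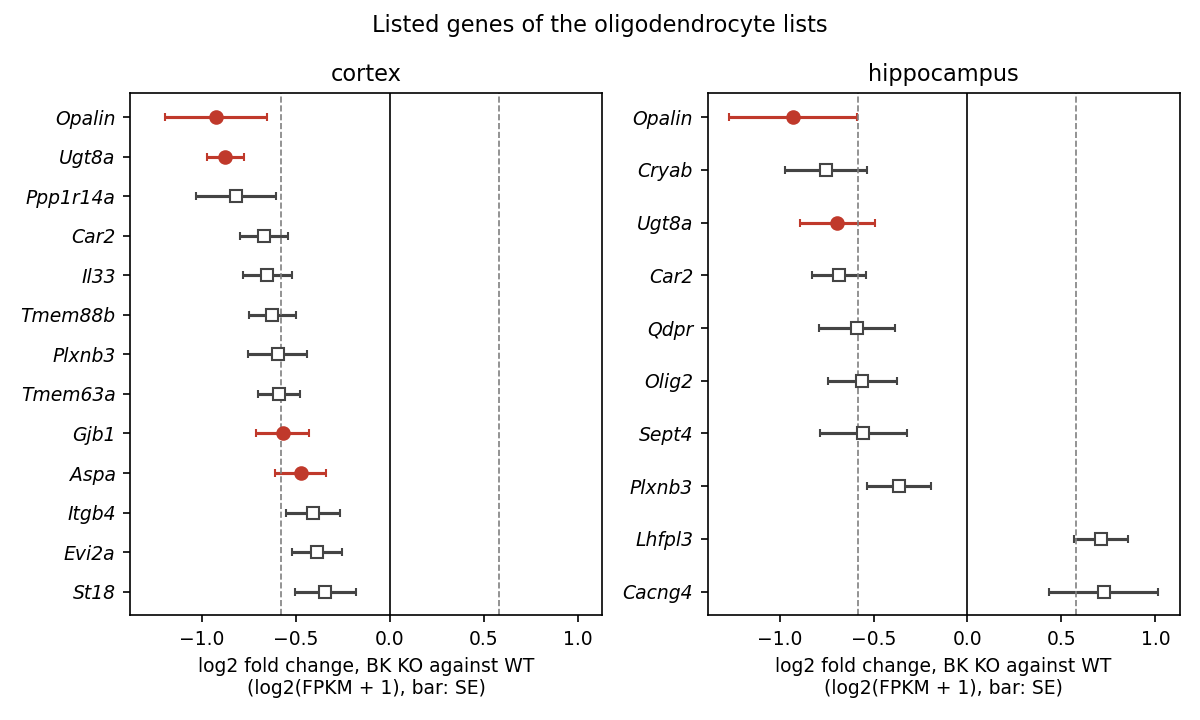
Log2 difference, BK KO minus WT, of log2(FPKM + 1) (x axis) for every listed gene of the oligodendrocyte lists, in cortex and hippocampus, with its SE as a bar, the 4 genes in red and dashed lines at a difference of 0.58 in either direction. All 13 cortex genes and 8 of the 10 hippocampus genes lie below 0, and the precursor markers Lhfpl3 (0.71) and Cacng4 (0.73) lie above it.

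**Figure D3:**
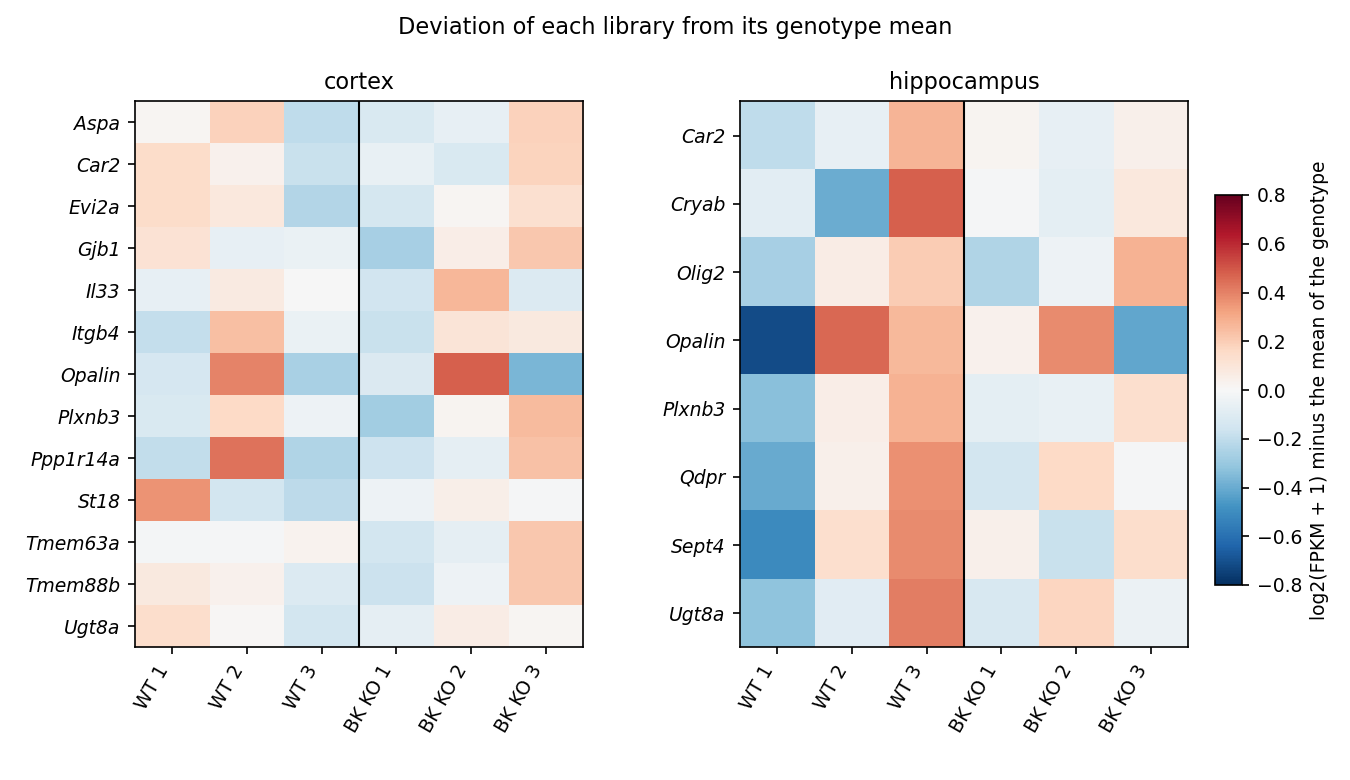
Deviation of each library (columns) from the mean of its genotype, on the log2(FPKM + 1) scale (colour, red higher and blue lower), for the listed oligodendrocyte genes other than precursor markers (rows) in cortex and hippocampus. In hippocampus WT library 3 is red in all rows and WT library 1 blue in all rows, with mean deviations of 0.33 and -0.35, while in cortex BK KO library 1 is the lowest BK KO library in 11 of 13 rows.

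Few precursor markers passed the authors' cutoffs and so had values. Of 16 markers, 0 were listed for cortex and 2 for hippocampus, and both were higher in BK KO. Lhfpl3 was at 5.07 ± 0.566 FPKM in WT and 8.98 ± 1.38 in BK KO (0.71, no overlap). Cacng4, a subunit of AMPA receptors and calcium channels, was at 11.8 ± 5.92 and 18.8 ± 1.44 (0.73), where WT library 3 was at 18.6 and the groups overlapped. Lhfpl3 was past the threshold in 6 of 6 cases with a library left out and Cacng4 in 1 of 6. Of the genes in these lists, 4 were listed in both tables (Car2, Opalin, Plxnb3 and Ugt8a), 40.0% of the 10 in hippocampus and 30.8% of the 13 in cortex, and each was lower in BK KO in both. Among all listed genes, 196 were in both tables, of 652 in hippocampus and 561 in cortex. How many of the 196 were lower in BK KO in both was not counted here. Both tissues came from the same mice, so a like direction in both is not a repeat in other animals.

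Markers of other cells were read beside these values. In cortex, the tables listed 1 of 12 astrocyte markers (Gfap, higher in BK KO at 38.7 ± 14.1 and 75.2 ± 21.6 FPKM), 1 of 12 microglia markers (Itgam, lower with overlap), 1 of 12 neuron markers (Gad2, higher) and 1 of 10 endothelial markers (Tek, lower). Of 7 Schwann cell markers, 2 were listed, Egr2 being lower with overlap and Cdh19 higher, and Prx and Pmp2 were not listed. Of 12 skeletal muscle genes, 11 were listed and all 11 were lower in BK KO, 10 of them without overlap, with a summed level of 27.3 to 90.7 FPKM in WT and 7.25 to 9.43 in BK KO, and Ckm was at 0 in BK KO library 3 and Myl1 in BK KO library 2. In hippocampus 0 of 12 muscle, 0 of 7 Schwann cell, 0 of 12 astrocyte and 0 of 12 microglia markers were listed, and Gad2 (higher) and Tek (lower) stood alone for neurons and endothelium. The part of other cells, and of the muscle signal in cortex, in the differences of the 4 genes was not tested.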

How the data were processed

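RNA of hippocampus and cortex from 3 WT and 3 BK KO mice was prepared by the authors as poly-A libraries and read as paired ends. Samples were grouped by the labels. The submitters' processing notes name mm9 and DESeq 1.10.1, and the methods also name DESeq2. The aligner and read counter are not given in the sources used here. The authors called genes at an unadjusted p-value below 0.05 with a log2 fold change above 0.58 in size, and deposited the called genes only. Deposited values of single libraries were read as FPKM. The sources do not name this unit, but base mean over value rose with transcript length (Spearman 0.684 over 426 hippocampus genes and 0.723 over 355 cortex genes). The deposited base means are a normalised signal, counts scaled by size factors and then averaged per group by the authors, and were used for that check. The authors' fold, ratio and p-value columns were not used. All per-library columns matched a label. Sept4 is written as a date in the hippocampus table and was matched by its gene ID.

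Genotypes were compared within each tissue by limma 3.58.1 (R 4.3.3) on log2(FPKM + 1), over every listed gene with no filter. Tissues were compared over the 196 shared genes. The fit was tested on simulated data. Permutation tests were enumerated in R, rank correlations used scipy 1.17.1, figures matplotlib 3.10.9, and tables pandas 2.3.3 and numpy 2.4.6, under Python 3.11.15. The members and lists were chosen with earlier results of these data known. Named genes are the 4 members, Kcnma1, every listed gene of the oligodendrocyte lists, the 3 genes most like each member, and genes of other lists where 5 or fewer are listed. Named beyond this rule, after the values were seen, are Ckm and Myl1. Also beyond it are Mbp, Mog, Mag, Cnp, Sox10, Myrf, Prx and Pmp2, which are listed for neither tissue. Some genes of the lists are not reported here and were left out of the list counts. Alternatives were the pseudocounts 0.1 and 0.01, a filter on mean FPKM of 1 or more, a replicate block, a variance trend in limma and leaving out each library. Deviations of same-numbered WT and BK KO libraries correlated at -0.24 to 0.12, and over 0.1 only for libraries 2 of cortex. Those of same-numbered hippocampus and cortex libraries correlated over 0.1 in 4 of 6 cases.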

Additional observations from a re-analysis of the deposited data

How the results depend on the processing

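All 66 log2 differences of the 4 genes under the alternatives were lower in BK KO, between -1.29 and -0.38. Counts of listed genes past the threshold moved from 278 in hippocampus and 173 in cortex to 548 and 408 with a pseudocount of 0.1 and to 537 and 421 with 0.01, and the cause was not tested. With limma's trend they were 281 and 182. Leaving out 1 library gave 230 to 282 in hippocampus and 135 to 180 in cortex. The count of cortex genes whose groups do not overlap was 452, and 284 over genes of mean FPKM of 1 or more, where fewer genes are counted. With 1 library left out it was 473 to 488 in cortex and 550 to 574 in hippocampus. Oligodendrocyte genes past the threshold numbered 5 in hippocampus (0 to 7 with 1 library left out, 0 without WT library 3) and 8 in cortex (4 to 9, with 4 without BK KO library 1). They numbered 6 in hippocampus and 12 in cortex with a pseudocount of 0.1, and 5 and 12 with 0.01. The alternatives on these oligodendrocyte counts and on non-overlap were added after seeing the data. The difference between tissues of Opalin, -0.01, turned positive without WT hippocampus library 1 (0.17), BK KO hippocampus library 3 (0.09), WT cortex library 2 (0.09) or BK KO cortex library 2 (0.11), within a range of -0.13 to 0.17 and adjusted p of 0.724 to 0.997 by limma. That of Ugt8a ran from 0.01 to 0.20 (adjusted p of 0.564 to 0.973). Both tissues came from the same mice, but replicate numbers carry no stated link to a mouse. Deviations of same-numbered WT and BK KO libraries correlated at -0.07 to 0.08 in hippocampus and at -0.24 to 0.12 in cortex. Those of same-numbered hippocampus and cortex libraries correlated at 0.51, 0.66 and 0.55 in BK KO and at -0.000417, 0.49 and 0.02 in WT, and 4 of 6 hippocampus libraries were closest to the cortex library of their own number. Fitted with a replicate block, 272 genes in hippocampus and 165 in cortex were past the threshold, the oligodendrocyte counts stayed at 5 and 8, and the tissue comparison had 1 gene at an adjusted and 22 at an unadjusted p under 0.05, with an adjusted p of 0.981 for Opalin and 0.553 for Ugt8a by limma. Depth per library is unknown, so counting error could not be set beside these values.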
